A study of Homo sapiens with 47 samples.

Results

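The cells described here are those at the ends of the G2/M range in a culture of HEK293, a human line derived from embryonic kidney and carrying adenovirus genes: 12 G2/M-high cells and 12 G2/M-low cells, 24 of the 47 single cells measured. The members were selected on measured values. For each cell the UMIs (unique molecular identifiers, tags that mark single captured transcripts at their 5′ end) of 12 genes, UBE2C, TOP2A, CKS2, CDK1, CCNB1, CCNB2, CDC20, BIRC5, TPX2, CENPF, AURKA and NUSAP1, were summed and divided by all UMIs of human genes in that cell, and the 12 highest and the 12 lowest cells were taken. The remaining 23 cells belong to neither group. Both groups come from 1 line, 1 microfluidic run (Fluidigm C1) and 1 pool of barcoded cDNA, with no treatment named, and every cell lysate received 20000 molecules of ERCC spike-in RNA, a set of synthetic transcripts. Nothing in the labels says that the cells came from separate cultures. The G2/M-high and G2/M-low cells are therefore cells of 1 sample, no test between them was possible, and differences are given as folds, as counting intervals and as the share of pairs of a G2/M-high and a G2/M-low cell in which the G2/M-high cell was higher, with ties counted for both sides in equal parts.

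A dividing cell copies its DNA in S phase, prepares for division in G2 and separates the copies in mitosis. The messages of mitotic genes are known to be low after division and to build up late in the cycle, so that the kinase CDK1 with its B-type cyclins, the Aurora and Polo kinases and the spindle machinery are at hand together. Many of these genes are known to share promoter elements. The cell cycle genes homology region (CHR), with the letters TTTGAA or in another form TTTAAA, is bound by the MuvB complex, and the CCAAT box is bound by the factor NF-Y.

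The promoters of genes on which the results turn are shown so that the presence or absence of these elements can be read. Each line gives the 120 bases before the annotated gene start from RefSeq (GRCh38.p14), 5′ to 3′ on the strand of the gene, with matches to both CHR forms and to CCAAT on either strand in capitals. On the other strand TTTGAA reads TTCAAA, and CCAAT reads as the letters ATTGG. TOP2A (chr17:40417897-40418016, minus strand), CKS2 (chr9:89311075-89311194, plus strand) and CCNB1 (chr5:69167030-69167149, plus strand) are genes of the selection rule. DEPDC1 (chr1:68497083-68497202, minus strand), KPNA2 (chr17:68035615-68035734, plus strand), KIF2C (chr1:44739717-44739836, plus strand) and CKAP5 (chr11:46846281-46846400, minus strand) are the mitotic genes outside the rule with the most pairs in which the G2/M-high cell was higher.
TOP2A: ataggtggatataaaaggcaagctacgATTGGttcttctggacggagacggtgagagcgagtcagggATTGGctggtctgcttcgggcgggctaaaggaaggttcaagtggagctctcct
CKS2: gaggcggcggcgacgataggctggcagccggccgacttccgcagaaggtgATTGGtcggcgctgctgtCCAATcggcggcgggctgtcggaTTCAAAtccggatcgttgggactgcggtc
CCNB1: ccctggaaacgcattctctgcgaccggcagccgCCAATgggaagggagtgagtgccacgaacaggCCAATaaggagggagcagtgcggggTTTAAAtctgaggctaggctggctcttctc
DEPDC1: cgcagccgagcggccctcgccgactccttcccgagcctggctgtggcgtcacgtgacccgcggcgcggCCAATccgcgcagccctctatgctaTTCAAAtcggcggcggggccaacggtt
KPNA2: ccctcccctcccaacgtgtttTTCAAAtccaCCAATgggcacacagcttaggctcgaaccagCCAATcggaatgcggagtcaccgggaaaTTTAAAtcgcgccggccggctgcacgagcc
KIF2C: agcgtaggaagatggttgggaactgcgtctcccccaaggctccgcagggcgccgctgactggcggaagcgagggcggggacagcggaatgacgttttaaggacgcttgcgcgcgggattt
CKAP5: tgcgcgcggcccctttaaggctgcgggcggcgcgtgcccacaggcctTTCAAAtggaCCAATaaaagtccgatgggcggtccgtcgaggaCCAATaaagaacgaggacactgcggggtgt

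The TOP2A stretch holds CCAAT but no CHR form. The KIF2C stretch holds no match: its CHR form lies elsewhere in the promoter window, which has no CCAAT. In the whole promoter window of 250 bases before to 50 after the start, TTTGAA was present for 7 of the 8 rule genes that the promoter table holds (87.5%), and CCAAT for all 8. UBE2C, BIRC5, TPX2 and AURKA have no entry. Of the mitotic genes outside the rule that were higher in G2/M-high cells, as described below, 20 of 28 with an entry held TTTGAA (71.4%) and 21 held CCAAT. Of the mitotic genes that were not higher, 19 of 49 held TTTGAA (38.8%) and 31 held CCAAT. Over all 3018 compared genes with an entry, the shares were 12.8% for TTTGAA and 45.2% for CCAAT, and over all 27305 genes with a promoter in that set they were 18.2% for TTTGAA and 39.7% for CCAAT. Either CHR form together with CCAAT was found for 64.3% of the higher mitotic genes, 26.5% of the mitotic genes not higher and 8.42% of all compared genes. A match is a run of letters in a window and not a measured binding site.

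The selected share was 0.379 ± 0.0723% of a cell's UMIs in G2/M-high cells and 0.158 ± 0.0199% in G2/M-low cells (SD, n = 12 cells each), against 0.214 ± 0.0198% in the 23 remaining cells. The share ran along a continuous slope with no gap at either limit. Cell 67, the last inside the G2/M-high group, had 0.261%, and cell 7, the next outside it, had 0.253%. Cell 50, the last inside the G2/M-low group, had 0.180%, and cell 35, the next outside it, had 0.183%. The plot of ranked shares shows that the G2/M-high cells spread more widely than the G2/M-low cells, up to 0.495% in cell 9 and down to 0.118% in cell 31.

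**Figure D1:**
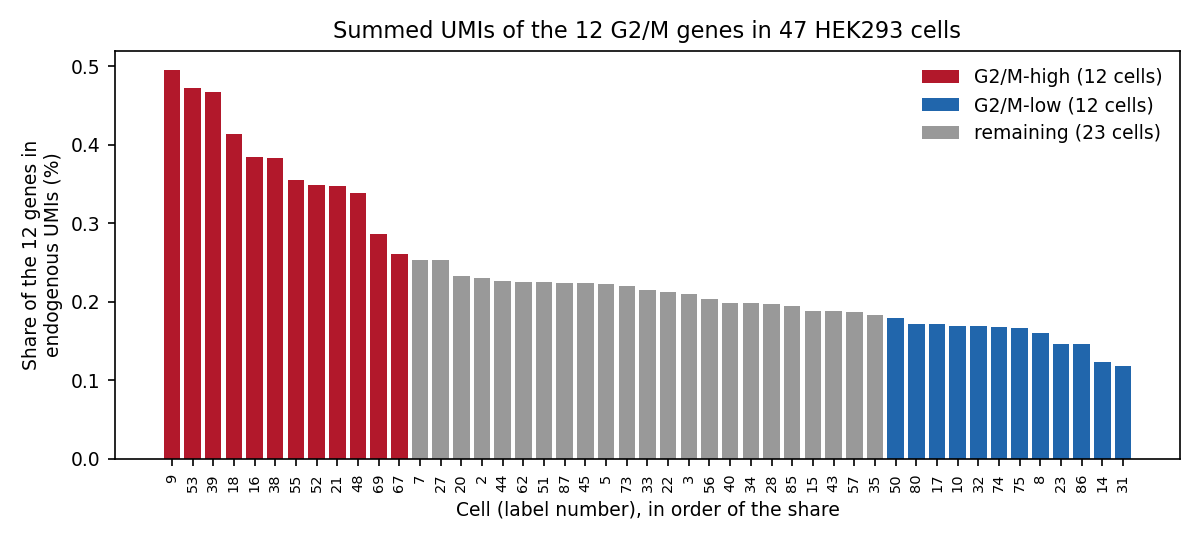
Share of the 12 G2/M genes in the endogenous UMIs of each of the 47 cells (y axis, %), with cells named by label number and ordered by the share (x axis). The 12 G2/M-high cells lie between 0.261% and 0.495% and the 12 G2/M-low cells between 0.118% and 0.180%, with the remaining 23 cells between them.

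Sequencing depth and RNA content moved with the groups, and their part in the results below was not tested. G2/M-high cells had 32709, 71613 and 95936 endogenous UMIs (lowest, median, highest), against 29325, 40109 and 86174 in G2/M-low cells, and the G2/M-high cell was the deeper one in 81.9% of pairs. The ranges overlapped, with 3 G2/M-high cells above every G2/M-low cell. Endogenous UMIs per spike-in UMI, a measure of RNA per cell, were 19.1 ± 4.09 in G2/M-high cells and 14.9 ± 3.86 in G2/M-low cells, 1.29-fold higher, with 79.2% of pairs in that direction. In cells with label numbers above 48 the direction turned, with means of 16.3 in G2/M-high cells and 17.6 in G2/M-low cells. Dividing by spike-in recovery gave a median of 397869 estimated mRNA molecules in G2/M-high cells and 263287 in G2/M-low cells. After thinning every cell to 29325 UMIs, 5276 ± 145 genes were detected in G2/M-high cells and 4804 ± 386 in G2/M-low cells. In the remaining 23 cells Spearman's rho with the 12-gene share was -0.0484 for endogenous UMIs and -0.227 for endogenous UMIs per spike-in UMI (n = 23 cells of 1 run, descriptions).

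**Figure D2:**
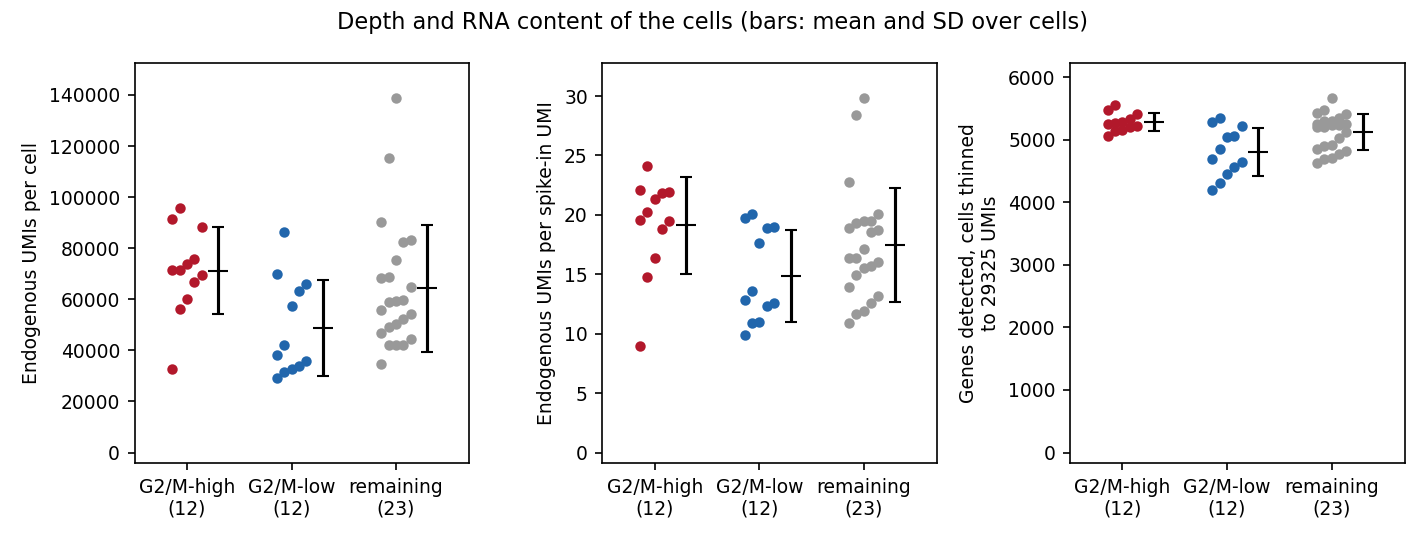
Endogenous UMIs, endogenous UMIs per spike-in UMI and genes detected after thinning to 29325 UMIs (y axes), 1 point per cell, for 12 G2/M-high, 12 G2/M-low and 23 remaining cells, with bars for mean and SD over cells. G2/M-high cells had a median of 71613 endogenous UMIs, against 40109 in G2/M-low cells, and the ranges overlap in all 3 panels.

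G2/M-high cell 52 stood apart from the other cells of its group: it had the fewest endogenous UMIs of that group, the lowest ratio to spike-in (8.99), and 12.1% of its UMIs came from mitochondrially encoded mRNAs, where the group's median was 3.24%. Where leaving it out lowered the number of calls in a gene list, the number without it is given. Markers of differentiated kidney and of other tissues that had a row had few UMIs, and most of these markers had no row. Kidney epithelium markers had 13 UMIs in G2/M-high cells and 5 in G2/M-low cells over 4 of 9 markers with a row. The adrenal, fibroblast, blood and pluripotent lists had at most 10 UMIs in either group. Rows were there for 2 of 5 adrenal, 2 of 7 fibroblast, 2 of 7 blood and 1 of 5 pluripotent markers. Neuronal markers, some of which HEK293 cells are known to express, took 0.0444 ± 0.0263% of UMIs in G2/M-high cells and 0.0436 ± 0.0309% in G2/M-low cells, with 5 of 9 markers having a row, and ranged between 0.0183% and 0.114% in the G2/M-high cells and between 0.00812% and 0.0973% in the G2/M-low cells.

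Which of the 12 selection genes carried the difference is a description, since they chose the cells. Together they had 3290 of 853961 UMIs in G2/M-high cells and 945 of 585652 in G2/M-low cells. UBE2C, the ubiquitin-conjugating enzyme of the anaphase-promoting complex, had 210, 533 and 1187 CPM (lowest, median and highest UMIs per 1000000 endogenous UMIs of a cell) in G2/M-high cells, against 30.7, 134 and 272 CPM in G2/M-low cells. It stood apart most among the 12, since 11 of 12 G2/M-high cells lay above every G2/M-low cell, and its mean was 4.73-fold higher (658 ± 294 against 139 ± 80.2 CPM). The mean CPM of AURKA, a spindle-pole kinase, was 3.82-fold higher, that of CDK1, the kinase that drives entry into mitosis, 3.58-fold, and that of TOP2A, which untangles DNA strands, 3.57-fold.

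The other 8 selection genes differed less between the groups. Mean CPM was 2.35-fold higher in G2/M-high cells for CENPF, a kinetochore protein, 2.34-fold for CCNB1 and 1.70-fold for CCNB2, the B-type cyclins, and 1.95-fold for BIRC5 (survivin), a chromosomal passenger protein. It was 1.86-fold higher for CKS2, a CDK1-binding subunit, and 1.64-fold for NUSAP1, a spindle protein. CDC20, which activates the anaphase-promoting complex, was at 114 ± 48.2 CPM in G2/M-high cells and 93.6 ± 73 CPM in G2/M-low cells, and TPX2, which activates AURKA, at 117 ± 64.4 and 90.5 ± 89.4 CPM. Both overlapped almost entirely, with 63.9% of pairs each in the direction of the selection. UBE2C made up 17.6% of the rule's UMIs in G2/M-high cells and 9.42% in G2/M-low cells.

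Outside the rule, 3673 genes had at least 100 UMIs over all 47 cells and were compared. The mean CPM was at least 1.5-fold higher in G2/M-high cells for 555 of them (15.1%) and at least 1.5-fold lower for 277 (7.54%). At least 80% of cell pairs had the G2/M-high cell higher for 70 genes (1.91%), and at most 20% did for 32 (0.871%). Both criteria were met by 68 higher and 15 lower genes, and no gene had groups without overlap. The median log2 fold of all compared genes was 0.06. With trimmed-mean (TMM) scaling in place of totals, that median was 0.16 and the calls were 79.0% higher ones, against 66.7% with totals. Calls were mostly of rare transcripts: among genes with 100 to 200 UMIs 22.9% were higher and 11.8% lower, and among those with at least 1000 UMIs 2.33% and 0.699%. At 1 UMI a gene stood at 34.1 CPM in the shallowest cell of the groups and at 10.4 CPM in the deepest, so a fold of a rare gene rests on few molecules. The minimum sums UMIs over all 47 cells, so a rare gene can pass it through the group in which it is high. This can favour large folds and higher calls, since G2/M-high cells had 853961 UMIs and G2/M-low cells 585652.

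Mitotic genes that the rule did not use were higher in G2/M-high cells more often than genes in general. Of 166 such genes in 7 lists, 163 had a row and 87 had at least 100 UMIs. Of these, 33 were at least 1.5-fold higher in G2/M-high cells (37.9%, where 15.1% of all compared genes were) and 4 at least 1.5-fold lower (4.60%, where 7.54% were). Their median log2 fold was 0.32. Their summed share was 1.41 ± 0.182% of UMIs in G2/M-high cells and 1.11 ± 0.182% in G2/M-low cells, with the G2/M-high cell higher in 87.5% of pairs. The rule's genes and these lists are parts of one well-known program, and both were read in the same cells. The plot of list members shows that the difference was uneven: the spindle and cytokinesis lists lie mostly to the right of the upper fold limit, and the kinetochore list is centred near 0.

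**Figure D3:**
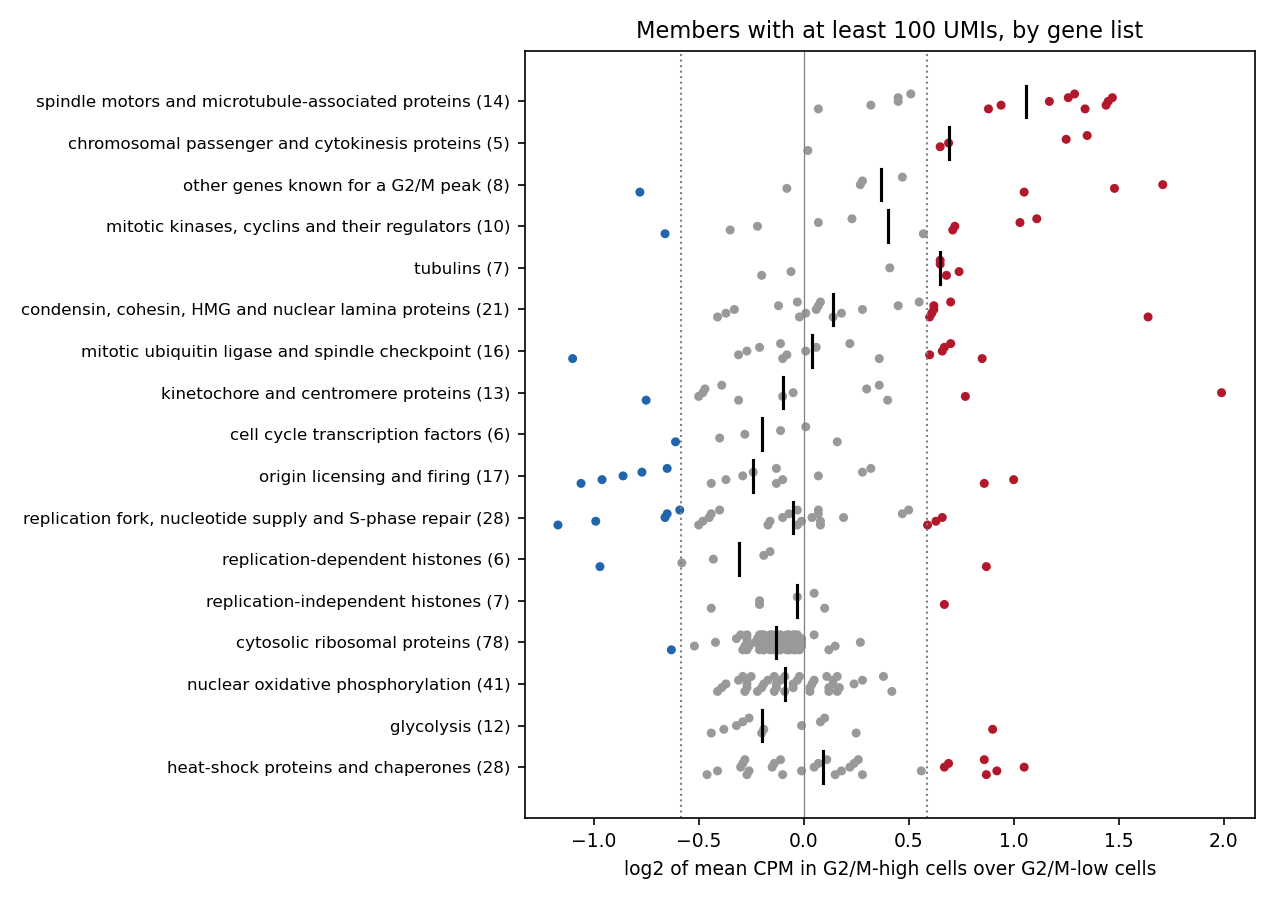
log2 of mean CPM in G2/M-high cells over G2/M-low cells (x axis), 1 point per gene with at least 100 UMIs, by gene list (rows, number of genes in brackets); black bars are list medians, dotted lines the 1.5-fold limits, red and blue points the genes beyond them. Of 14 spindle genes 9 lie above the upper limit and none below the lower one; with TMM scaling the medians of the replication fork, replication-independent histone and oxidative phosphorylation lists, here -0.05, -0.03 and -0.09, lie at 0.03, 0.06 and 0.03.

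Spindle motors and microtubule-associated proteins differed most among the mitotic lists with 10 or more compared genes. Of 14 compared members 9 were higher in G2/M-high cells (64.3%, where 15.1% of all compared genes were) and 0 were lower. Their median log2 fold was 1.06. The summed share was 0.269 ± 0.0519% in G2/M-high cells and 0.160 ± 0.0464% in G2/M-low cells, with the G2/M-high cell higher in 94.4% of pairs. In cells with label numbers above 48, 4 were higher (28.6%, where 16.9% of all were) and 0 lower. There the summed share was 0.260 ± 0.0703% in G2/M-high cells and 0.191 ± 0.0489% in G2/M-low cells. KIF2C, a kinesin that takes apart microtubules at the centromere, had 124, 231 and 374 CPM (lowest, median, highest) in G2/M-high cells, against 0, 76.5 and 287 CPM in G2/M-low cells. Of the G2/M-low cells 9 lay below every G2/M-high cell, and the highest of the 12 was cell 80. The mean of KIF2C was 2.53-fold higher, and the ratio of pooled counts, 192 UMIs in G2/M-high cells and 53 in G2/M-low cells, was 2.48 (95% interval 1.82 to 3.43, exact and for counting error only, as all intervals here).

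CKAP5, which promotes microtubule growth at spindle poles, had 30.0, 88.1 and 167 CPM in G2/M-high cells, against 0, 28.7 and 116 CPM in G2/M-low cells. It was 2.78-fold higher, in 86.1% of pairs. The other higher members of the list were ASPM (2.70-fold), which focuses spindle poles, GTSE1 (2.72-fold), which stabilizes microtubules, TROAP (1.84-fold), which acts at the spindle, ARL6IP1 (2.44-fold), a membrane protein of the endoplasmic reticulum, the kinesin KIF20B (2.25-fold) and DLGAP5 (1.92-fold), a stabilizer of kinetochore fibres. KNSTRN, a spindle and kinetochore protein, was also higher, with 58.3 ± 38.1 CPM in G2/M-high cells and 24.3 ± 28.9 CPM in G2/M-low cells. STMN1 (stathmin), a microtubule destabilizer that is abundant in these cells, had 598 ± 123 CPM in G2/M-high cells and 437 ± 177 CPM in G2/M-low cells, a fold of 1.37 that did not reach the limit.

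Genes of cytokinesis and of the chromosomal passenger complex, which guides the chromosomes and then the cleavage furrow, differed in the same direction. Of 5 compared members 4 were higher in G2/M-high cells and 0 lower, where 15.1% and 7.54% of all compared genes were. The summed share was 0.0631 ± 0.0180% in G2/M-high cells and 0.0371 ± 0.0224% in G2/M-low cells. In cells with label numbers above 48, 2 were higher and 1 lower, where 16.9% and 16.3% of all were. There the summed share was nearly equal, 0.0549 ± 0.0201% in G2/M-high cells and 0.0539 ± 0.0266% in G2/M-low cells. CDCA8 (borealin), a passenger subunit, had 30.6, 113 and 238 CPM in G2/M-high cells, against 0, 33.3 and 162 CPM in G2/M-low cells. The groups overlapped in their upper part, with 5 of 12 G2/M-high cells above every G2/M-low cell, and the mean was 2.37-fold higher. ANLN (anillin), a scaffold of the contractile ring, was 2.55-fold higher, ECT2, which activates RhoA at the furrow, 1.62-fold, and PRC1, which bundles the central spindle, 1.57-fold. KIF23, the motor of the central spindle, had 48.1 ± 49.6 CPM in G2/M-high cells and 47.5 ± 58.7 CPM in G2/M-low cells.

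Among mitotic kinases, cyclins and their regulators, 4 of 10 compared members were higher in G2/M-high cells and 1 was lower. Of all compared genes 15.1% were higher and 7.54% lower. The summed share of the list was 0.113 ± 0.0256% in G2/M-high cells and 0.0840 ± 0.0288% in G2/M-low cells. In cells with label numbers above 48, 2 were higher and 2 lower, where 16.9% and 16.3% of all were. There the summed share was nearly equal, 0.0983 ± 0.0121% in G2/M-high cells and 0.0961 ± 0.0406% in G2/M-low cells. PLK1, the Polo kinase, had 33.2, 114 and 215 CPM in G2/M-high cells, against 0, 21.9 and 314 CPM in G2/M-low cells. Its medians lay far apart, yet the highest value of all 24 cells was in the G2/M-low cell 80, and the mean was 1.64-fold higher in G2/M-high cells. AURKB, the kinase of the passenger complex, was 1.64-fold higher, BUB1, a checkpoint kinase, 2.04-fold and PBK, a mitotic kinase, 2.15-fold. CDC25A, the phosphatase that is active from G1 into S phase as well as in mitosis, had 38.3 ± 34.5 CPM in G2/M-high cells and 60.5 ± 55.5 CPM in G2/M-low cells, 1.58-fold lower. Cell 80 had the highest share of this list among G2/M-low cells, 0.159%, where the median of the group was 0.0759%, and also the group's highest share of the spindle list, 0.261%.

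The anaphase-promoting ubiquitin ligase and the spindle checkpoint, which together time the exit from mitosis, had 5 of 16 compared members higher in G2/M-high cells (31.2%, where 15.1% of all compared genes were) and 1 lower. Without cell 52, 4 were higher, and so was 1 in cells of 55000 to 75000 UMIs and 1 in cells with label numbers above 48. MAD2L1, a checkpoint inhibitor of the ligase, had 115, 309 and 530 CPM in G2/M-high cells, against 56.1, 186 and 351 CPM in G2/M-low cells, and its mean was 1.63-fold higher, in 79.9% of pairs. The checkpoint proteins BUB3 and BUB1B were 1.52-fold and 1.59-fold higher, FBXO5 (EMI1), an inhibitor of the ligase, 1.58-fold (1.41-fold without cell 52), and the ligase subunit CDC27 1.80-fold. The ligase subunit CDC26 had 43.7 ± 34.1 CPM in G2/M-high cells and 93.9 ± 91.3 CPM in G2/M-low cells, 2.15-fold lower, and the ligase subunit ANAPC11 354 ± 113 and 375 ± 152 CPM. PTTG1 (securin), which the ligase destroys at anaphase, had 282 ± 131 CPM in G2/M-high cells and 270 ± 201 CPM in G2/M-low cells.

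Kinetochore and centromere proteins, which join chromosomes to the spindle, were higher about as often as genes in general: 2 of 13 compared members (15.4%, where 15.1% of all compared genes were), with 1 lower and a median log2 fold of -0.10. Their summed share was 0.165 ± 0.0354% in G2/M-high cells and 0.149 ± 0.0389% in G2/M-low cells, so the median and the sum differ in sign. CENPA, the histone variant that marks centromeres, was 3.98-fold higher, with 0, 57.9 and 279 CPM in G2/M-high cells, against 0, 0 and 58.8 CPM in G2/M-low cells. It rested on 66 UMIs in G2/M-high cells and 10 in G2/M-low cells, and 6 of 12 G2/M-high cells lay above every G2/M-low cell. CENPE, the kinetochore motor, was 1.70-fold higher. CENPM was 1.69-fold lower, and the mean of ZWINT, an outer kinetochore protein, was 75.1 ± 34.5 CPM in G2/M-high cells and 104 ± 51.3 CPM in G2/M-low cells, which is inside the 1.5-fold limit.

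Among condensins, cohesins, high-mobility-group (HMG) and lamina proteins, 6 of 21 compared members were higher in G2/M-high cells (28.6%, where 15.1% of all compared genes were) and 0 lower. In cells with label numbers above 48, 2 were higher and 4 lower, and the log2 ratio of the summed share was -0.07, where it was 0.16 in all 24 cells. SMC2, the core ATPase of condensin, was 3.11-fold higher, with 0, 71.2 and 142 CPM in G2/M-high cells, against 0, 0 and 143 CPM in G2/M-low cells, where 7 of 12 cells had no UMI of it. The cohesin subunits SMC1A and RAD21 were 1.62-fold and 1.52-fold higher, HMGB2 and HMGB3 1.53-fold each, and MKI67 (Ki-67), which coats mitotic chromosomes, 1.53-fold. The HMG protein HMGN2 went the other way inside the limit, with 611 ± 154 CPM in G2/M-high cells and 789 ± 199 CPM in G2/M-low cells, and the G2/M-high cell was higher in 20.1% of pairs.

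Of 8 compared genes known for a G2/M peak but with other functions, 3 were higher in G2/M-high cells (37.5%, where 15.1% of all compared genes were). All 3 passed 80% of pairs. KPNA2, an importin that carries proteins into the nucleus, had 240, 641 and 951 CPM in G2/M-high cells, against 154, 310 and 471 CPM in G2/M-low cells. Of the G2/M-high cells 9 lay above every G2/M-low cell, and the mean was 2.07-fold higher, with a ratio of pooled counts of 1.96 (1.66 to 2.33). DEPDC1, a protein required for mitotic progression, had 75, 120 and 245 CPM in G2/M-high cells, against 0, 32.4 and 158 CPM in G2/M-low cells. Here 10 of the 12 G2/M-low cells lay below every G2/M-high cell, and the mean was 2.80-fold higher. CDCA3, a trigger of mitotic entry, was 3.27-fold higher. CBX5 (HP1 alpha), a heterochromatin protein, was 1.72-fold lower, at 78.5 ± 56.4 CPM in G2/M-high cells and 135 ± 78.0 CPM in G2/M-low cells.

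Tubulins, the building blocks of microtubules, were higher in G2/M-high cells for 4 of 7 compared genes (57.1%, where 15.1% of all compared genes were). In cells with label numbers above 48, 2 were higher (28.6%, where 16.9% of all were). There the summed share was 0.323 ± 0.0681% in G2/M-high cells and 0.339 ± 0.0362% in G2/M-low cells, the other direction. TUBB, a beta-tubulin, had 564, 839 and 1128 CPM in G2/M-high cells, against 136, 556 and 774 CPM in G2/M-low cells. Of the G2/M-high cells 8 lay above every G2/M-low cell, and its mean was 1.57-fold higher, in 90.3% of pairs. The alpha-tubulin TUBA1C was also 1.57-fold higher, in 85.4% of pairs, while the most abundant one, TUBA1B, had 1797 ± 499 CPM in G2/M-high cells and 1874 ± 297 CPM in G2/M-low cells. Tubulin genes are near-identical in sequence, and how the authors' counting shared reads among them is not known, so values of single tubulins are uncertain.

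**Figure D4:**
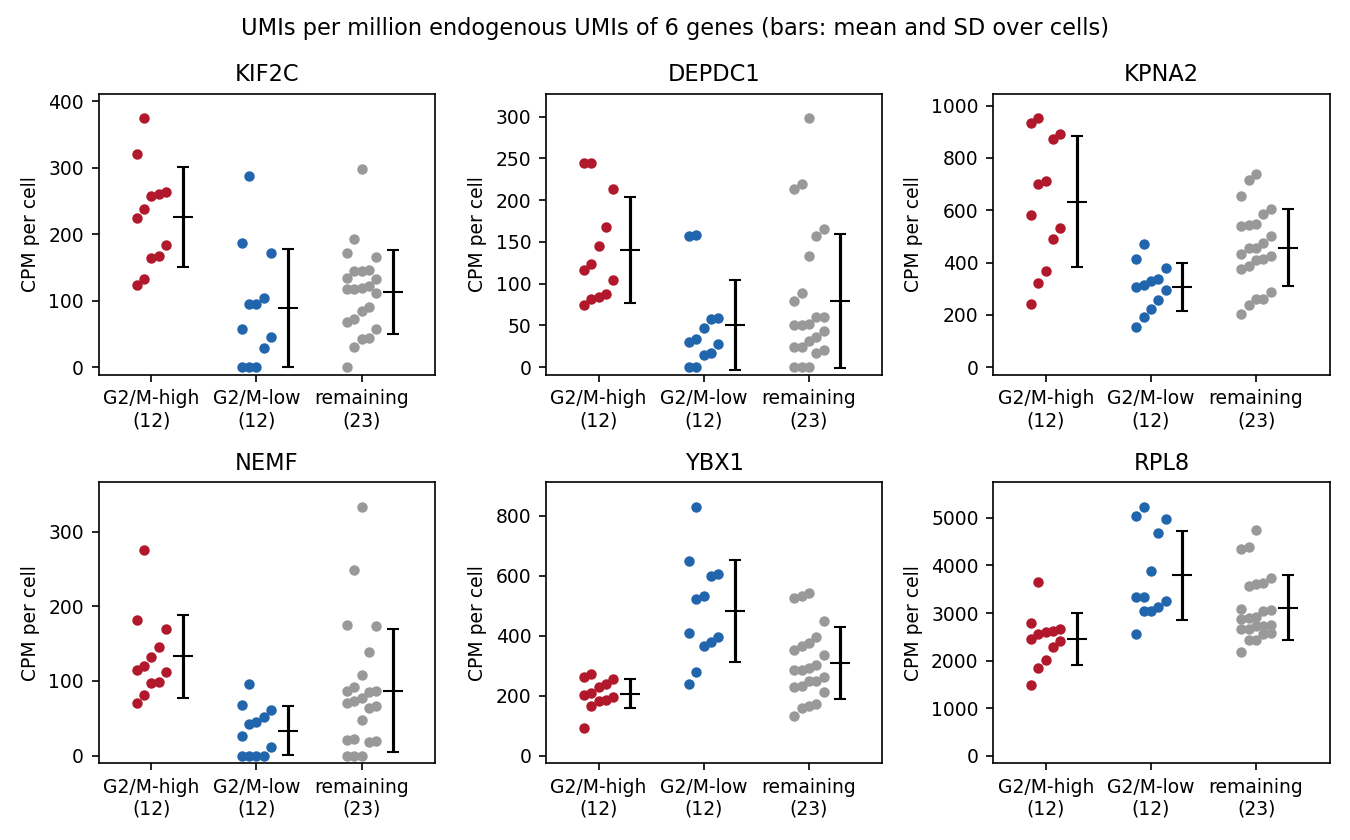
CPM per cell (y axes) of KIF2C, DEPDC1, KPNA2, NEMF, YBX1 and RPL8 in 12 G2/M-high, 12 G2/M-low and 23 remaining cells, 1 point per cell, with bars for mean and SD. KIF2C, DEPDC1, KPNA2 and NEMF are higher in G2/M-high cells and YBX1 and RPL8 lower, and in each panel at least 1 cell of a group lies within the range of the other.

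Of 17 compared genes of origin licensing and firing, 5 were lower in G2/M-high cells (29.4%, where 7.54% of all compared genes were) and 2 higher, with a median log2 fold of -0.24. Without cell 52, 4 were lower. The lower ones were GINS4 (2.08-fold), MCM5 (1.95-fold), MCM6, CDT1 and CDC6, all known to load or start the replicative helicase, and the higher ones the origin recognition subunits ORC3 and ORC4. The summed share of the list was 0.169 ± 0.0256% in G2/M-high cells and 0.191 ± 0.0554% in G2/M-low cells, and its highest value, 0.292%, was in the G2/M-low cell 32. Genes of the replication fork, nucleotide supply and S-phase repair were lower for 5 of 28 (17.9%, where 7.54% of all compared genes were) and higher for 3 (10.7%, where 15.1% were). With TMM scaling 2 were lower, and without cell 52, 3 were lower and 1 higher. Their summed share was 0.395 ± 0.0556% in G2/M-high cells and 0.398 ± 0.0795% in G2/M-low cells. Both groups were low beside the remaining 23 cells, which had 0.496 ± 0.0853% for the fork list and 0.215 ± 0.0423% for the licensing list. CLSPN (claspin), a fork protein, was 2.24-fold lower in G2/M-high cells, and CHAF1A, the histone chaperone of the fork, 1.98-fold. Cell 52 had the highest value of both among G2/M-high cells, and without it the log2 folds were -1.76 for CLSPN and -1.63 for CHAF1A, where they were -1.17 and -0.99 with it.

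Replication-dependent histones, whose messages are known to be made in S phase, varied more within the groups than between them. Their share was 0.0993%, 0.497% and 1.02% (lowest, median, highest) in G2/M-high cells, against 0.162%, 0.321% and 1.75% in G2/M-low cells. The means, 0.530 ± 0.375% in G2/M-high cells and 0.598 ± 0.526% in G2/M-low cells, changed places without the G2/M-low cell 8, where the log2 ratio was 0.11 instead of -0.17. HIST1H4C, the histone H4 gene with the most UMIs, had 4902 ± 3444 CPM in G2/M-high cells and 5486 ± 4945 CPM in G2/M-low cells. Most histone messages lack a poly(A) tail, and the assay primed on poly(A), so these counts are of the part that was captured. Of the G1 genes, the cyclin CCND1 was 2.64-fold higher in G2/M-high cells, with 14.4, 80.2 and 125 CPM against 0, 27.8 and 81.2 CPM in G2/M-low cells, in 87.5% of pairs, whereas the cyclin CCND3 was 2.32-fold lower.

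Of 6 compared transcription factors of the cell cycle 0 were higher in G2/M-high cells and 1 was lower, the NF-Y subunit NFYC (1.53-fold). With TMM scaling 0 were lower, and 0 were without cell 52. Of all compared genes 15.1% were higher and 7.54% lower, so such counts among 6 genes do not set the list apart. FOXM1, which is known to activate mitotic genes, had 39.2 ± 20.7 CPM in G2/M-high cells and 47.6 ± 44.7 CPM in G2/M-low cells. MYBL2 (B-Myb), its partner on CHR promoters, had 151 ± 63.4 CPM in G2/M-high cells and 199 ± 104 CPM in G2/M-low cells. Both overlapped over nearly their whole ranges. Messages were counted here, and the proteins were not.

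Cytosolic ribosomal protein genes took a smaller share in G2/M-high cells, 18.4%, 26.2% and 28.1% (lowest, median, highest), against 24.5%, 28.9% and 31.8% in G2/M-low cells. The G2/M-high cell was the higher one in 21.5% of pairs, and the lowest value was that of cell 52. The difference was small and spread over the list: 74 of 78 compared genes had a log2 fold below 0, 1 passed the 1.5-fold limit, and 9 had at most 20% of pairs. With TMM scaling 45 of 78 were below 0, and the median was -0.02 where it was -0.13 with totals. The number of genes below 0 thus depends on the scaling. RPL8, the 1 past the limit, had 1493, 2509 and 3659 CPM in G2/M-high cells, against 2561, 3326 and 5231 CPM in G2/M-low cells, and was 1.55-fold lower, being higher in G2/M-high cells in 8.33% of pairs. Ribosomal protein genes have many near-identical copies in the genome, which makes single values uncertain. The share of ribosomal protein messages was also lower in deeper cells among the remaining 23 (rho -0.536 with endogenous UMIs, a description), so depth moves with this result.

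Glycolysis genes took 1.02 ± 0.128% of UMIs in G2/M-high cells and 1.18 ± 0.197% in G2/M-low cells. GAPDH had 2773 ± 357 CPM in G2/M-high cells and 3606 ± 837 CPM in G2/M-low cells, and ENO1 1377 ± 227 and 1862 ± 447 CPM, and both had under 20% of pairs in favour of the G2/M-high cells. Neither passed the 1.5-fold limit. The share of nuclear oxidative phosphorylation genes was 3.42 ± 0.467% in G2/M-high cells and 3.68 ± 0.253% in G2/M-low cells, with 0 of 41 members beyond the limit either way and a median log2 fold of -0.09, or 0.03 with TMM scaling. Mitochondrially encoded mRNAs took 3.96 ± 2.62% in G2/M-high cells and 3.45 ± 0.618% in G2/M-low cells, but 3.22 ± 0.630% in G2/M-high cells without cell 52, which turned the direction. Of heat-shock proteins and chaperones 6 of 28 were higher (21.4%, where 15.1% of all compared genes were) and 0 lower, or 3 (10.7%) without cell 52, so the share lies on either side of that of all genes. Among the 6 was HSPA1B (2.07-fold), a stress-induced HSP70 with a near-identical copy in HSPA1A. The proteasome list had 0 of 29 members beyond the limit in either direction.

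Growth and stress genes were mixed. Of 11 immediate-early genes 5 were higher in G2/M-high cells (45.5%, where 15.1% of all compared genes were) and 2 lower (18.2%, where 7.54% were), and without cell 52, 4 were higher. MYC had 16.6, 160 and 407 CPM in G2/M-high cells, against 0, 58.0 and 286 CPM in G2/M-low cells, and was 2.17-fold higher, in 73.6% of pairs. JUN was 1.53-fold (1.43-fold without cell 52) and DUSP1, a phosphatase of the MAP kinases, 1.94-fold higher, while FOS and IER2 were lower. Of 7 compared targets of ATF4, the factor of the integrated stress response, 0 were beyond the limit. Targets of p53 took 0.0241 ± 0.0117% of UMIs in G2/M-high cells and 0.0149 ± 0.00944% in G2/M-low cells. In cells with label numbers above 48 the direction turned, with 0.0181 ± 0.00675% and 0.0192 ± 0.0131%. MALAT1, an abundant nuclear RNA, was 1.51-fold higher with 2102 ± 1121 CPM in G2/M-high cells and 1389 ± 1339 CPM in G2/M-low cells; its highest value was that of cell 52, and without that cell 0 of 3 nuclear non-coding RNAs passed the limit.

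Of the 68 genes that were higher by both criteria 11 were in a mitotic list, where 87 of all 3673 compared genes were. Another 54 of the 68 were in no list, and most compared genes were in none either. NEMF, a factor that recognizes stalled ribosomal subunits, had the most complete separation among the genes named by size, with 71.1, 118 and 275 CPM in G2/M-high cells, against 0, 34.5 and 95.6 CPM in G2/M-low cells. The G2/M-high cell was higher in 98.6% of pairs, 10 of 12 G2/M-high cells lay above every G2/M-low cell, and the mean was 3.96-fold higher on 109 UMIs in G2/M-high cells and 18 in G2/M-low cells. NAA16, a subunit of the N-terminal acetyltransferase, had the largest fold, 7.92, with 0, 56.7 and 116 CPM in G2/M-high cells, against 0, 0 and 26.1 CPM in G2/M-low cells. It rested on 46 and 5 UMIs, so the ratio of pooled counts of 6.31 had an interval of 2.52 to 20.3.

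Among the other genes named by size, SASS6, which builds the cartwheel of new centrioles, was 4.07-fold higher, with 21.9, 59.2 and 160 CPM in G2/M-high cells, against 0, 7.91 and 58.8 CPM in G2/M-low cells. AKAP9, a centrosome and Golgi anchor of protein kinase A, was 3.93-fold higher, in 91.0% of pairs, and NUP62, a nuclear pore protein, 3.26-fold. TLE3, a transcriptional corepressor, had 43.2, 118 and 178 CPM in G2/M-high cells, against 0, 26.8 and 85.9 CPM in G2/M-low cells, in 93.1% of pairs. Others were OSBP, a lipid transfer protein (4.41-fold), ABHD10 (4.26-fold), the ubiquitin-conjugating enzyme UBE2H (4.22-fold), the inositol kinase ITPK1 (3.80-fold), the RNA methyltransferase METTL1 (3.70-fold), the transcription factor MLXIPL (3.62-fold), ALG13 (3.32-fold), FAM213A (3.30-fold), CDCA3 (3.27-fold), the splicing cyclin CCNL2 (3.18-fold), the reader of methylated RNA YTHDC1 (3.14-fold) and PRKRIP1 (3.13-fold). The highest values of NEMF, AKAP9 and PRKRIP1 were those of cell 52.

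Of the 15 genes lower by both criteria, YBX1, an abundant RNA-binding protein that packages messages in the cytoplasm, separated the groups most. It had 91.7, 207 and 271 CPM in G2/M-high cells, against 238, 467 and 830 CPM in G2/M-low cells. The G2/M-high cell was higher in 2.08% of pairs, and 11 of 12 G2/M-low cells lay above every G2/M-high cell. The mean was 2.33-fold lower, and the inverse ratio of pooled counts was 2.19 (1.81 to 2.66) on 183 UMIs in G2/M-high cells and 275 in G2/M-low cells. Its relative YBX3 was 2.39-fold lower, with 27.9, 48.2 and 145 CPM in G2/M-high cells, against 31.9, 176 and 264 CPM in G2/M-low cells. YBX1 has processed copies in the genome, and how reads were shared with them is not known.

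Among the other lower genes, PAIP2, which binds the poly(A)-binding protein and is known to repress translation, was 2.53-fold lower, with 0, 66.2 and 130 CPM in G2/M-high cells, against 84.1, 147 and 429 CPM in G2/M-low cells, of which 8 lay above every G2/M-high cell. The elongation factor subunit EEF1D was 1.70-fold lower, and the mitochondrial ribosomal proteins MRPS30 and MRPS15 were 3.05-fold and 1.69-fold lower. METTL12, a mitochondrial methyltransferase, had the largest difference, 3.15-fold, with 0, 55.0 and 87.6 CPM in G2/M-high cells, against 0, 129 and 414 CPM in G2/M-low cells. The others were the tRNA-modifying OSGEP (2.92-fold), the farnesyltransferase subunit FNTA (2.67-fold), C9orf16 (2.20-fold), the myosin light chain MYL6B (2.09-fold) and the splicing factor SRSF1 (2.06-fold). Of the 16 higher named genes with a promoter entry 7 held TTTGAA (43.8%), and of the 10 lower ones 0 did. Among all compared genes with an entry 12.8% held it. Either CHR form was held by 7 of the 16 (43.8%) and 1 of the 10 (10.0%), where 19.4% of all compared genes with an entry held one.

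The 23 remaining cells, which the comparison did not use, give a second view of the same genes, although they share the run, the depth range and the table with the groups. There the 12-gene share varied little, between 0.183% and 0.253%, and it rests on few UMIs per cell. Spearman's rho with it was 0.651 for the other G2/M genes, 0.605 for the mitotic kinases and 0.506 for the spindle genes (n = 23, descriptions). For the same lists rho with endogenous UMIs was 0.164, 0.119 and -0.0543. The cytokinesis list, which differed as much as the spindle list over all cells of both groups, had a rho of 0.0306. The checkpoint, kinetochore and tubulin lists were between -0.00889 and 0.0711. For ribosomal proteins rho was -0.403, for oxidative phosphorylation -0.466 and for glycolysis -0.330. Among the 33 mitotic genes higher in G2/M-high cells, CENPE (0.573), ARL6IP1 (0.520), PBK (0.500) and KPNA2 (0.497) had the highest values, and KIF2C had 0.308. Others of the 33 were below 0, such as CDC27 (-0.246) and KIF20B (-0.0781). CBX5, which was lower in G2/M-high cells, went the other way with 0.521.

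**Figure D5:**
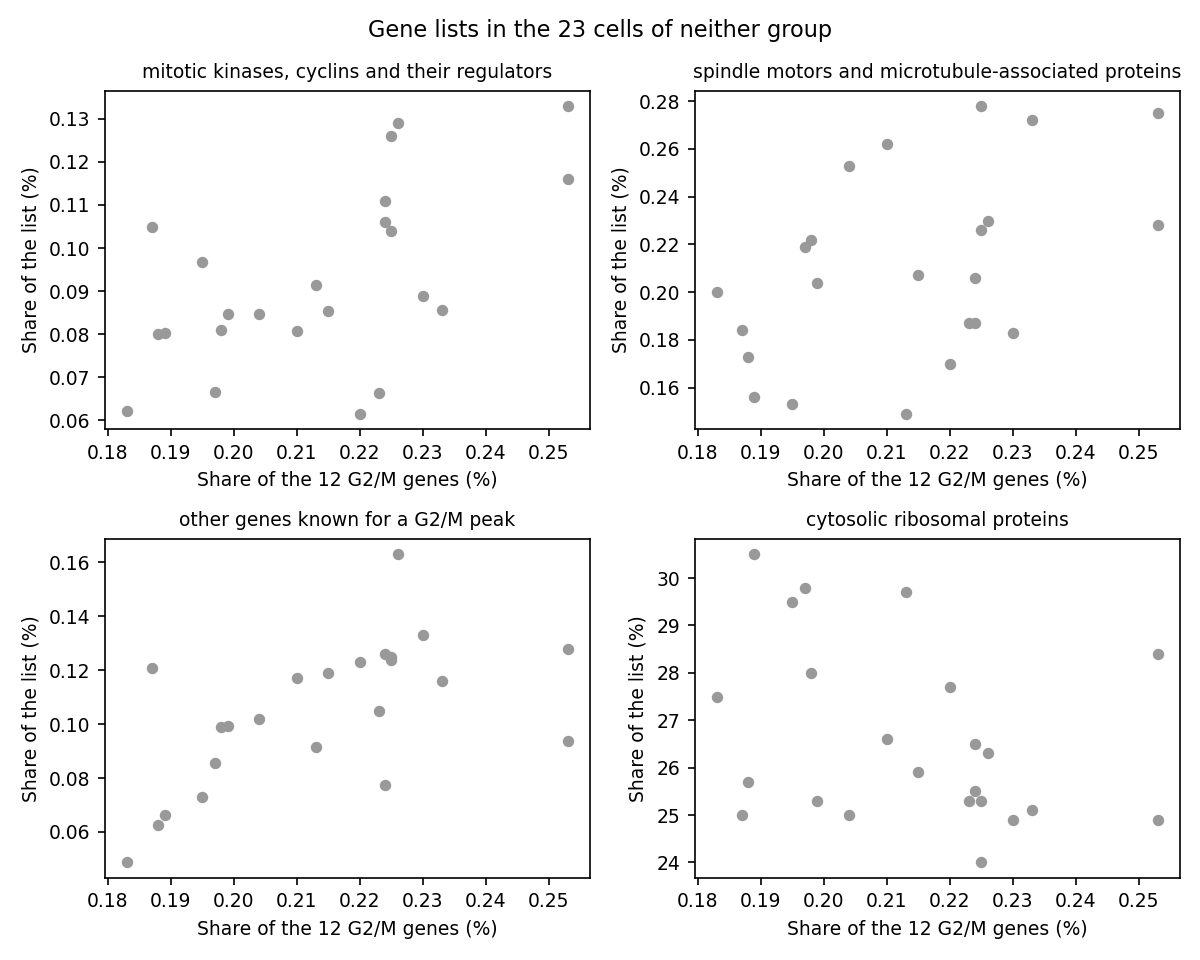
Shares of 4 gene lists in the endogenous UMIs of a cell (y axes, %) against the share of the 12 G2/M genes (x axis, %) in the 23 cells of neither group, 1 point per cell; axes do not start at 0. The kinase, spindle and other G2/M lists increase along the x axis (rho 0.605, 0.506 and 0.651) and the ribosomal protein share decreases (rho -0.403).

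Gene by gene, rho was weak. The 87 mitotic genes had a median of 0.0820, with 57 above 0, and the 68 genes higher by both criteria a median of 0.0984, with 43 above 0, where 53.7% of all compared genes were and the median of all was 0.0209. Of the 15 lower genes 11 were below 0, with a median of -0.0929, where 46.1% of all were. NEMF had a rho of 0.0999, NAA16 of -0.0178 and YBX1 of -0.256. SASS6 had -0.361, TLE3 0.419 and OSBP 0.404.

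Values were also read in a subset of the groups with more similar depth, and the part of depth was not tested. With only the cells of 55000 to 75000 endogenous UMIs, 7 G2/M-high and 4 G2/M-low cells with medians of 69482 and 64514 UMIs, 32 of the 87 mitotic genes were higher (36.8%, where 16.7% of all compared genes were), and endogenous UMIs per spike-in UMI averaged 19.2 in G2/M-high cells and 18.8 in G2/M-low cells. This range was chosen after the depths had been seen, and it leaves out the G2/M-low cell 80 (38272 UMIs). In it 10 of 14 spindle genes and 6 of 10 kinase genes were higher, but 1 of 16 checkpoint and ligase genes (6.25%) and 2 of 7 tubulins. Fork genes were lower for 11 of 28 and licensing genes for 8 of 17, where 14.5% of all compared genes were lower. The log2 fold of YBX1 was -0.94, that of KPNA2 0.69 and that of NEMF 1.66. Ribosomal protein shares were 26.3 ± 1.15% in G2/M-high cells and 27.1 ± 2.22% in G2/M-low cells.

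Cells with label numbers up to 48 and above 48 differed in how clearly they showed the pattern. Among numbers up to 48, with 7 cells in each group, 41 of the 87 mitotic genes were higher (47.1%, where 26.3% of all compared genes were), but there the median depth was 75736 UMIs in G2/M-high cells and 34030 in G2/M-low cells. Among numbers above 48, with 5 cells in each group and medians of 71571 and 63178 UMIs, 17 were higher (19.5%, where 16.9% of all were) and 10 lower (11.5%, where 16.3% of all were), and the log2 ratio of the summed share was 0.08 where it was 0.35 in all 24 cells. The G2/M-low cells above 48 include cell 80, which had the most kinase and spindle messages of its group. The log2 folds of KIF2C, DEPDC1 and TUBB were 2.34, 2.58 and 1.04 in cells up to 48 and 0.42, 0.67 and 0.10 above, while those of KPNA2 were 1.28 and 0.71, of NEMF 1.65 and 2.49, and of YBX1 -1.22 and -1.23.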

How the data were processed

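The deposited table holds UMI counts per gene and cell, whole numbers that the authors did not normalize. The tools named in the submitters' processing notes are cutadapt (1.2.1) and STAR (2.4.0a), and the build is hg19 (GRCh37). No source used here gives the annotation, how UMIs were collapsed, whether strand was used or which cells were dropped. A repeated header line, summing to 1859 or 0.0602% of all values, was left out, as were 78 spike-in rows from totals, which left 18651 gene rows. Each column was matched to 1 cell by the number in its name, next to which stands a further, unexplained word, and 0 columns were left over. No cell was filtered out here and no doublet caller was run.

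CPM is a cell's UMIs per 1000000 endogenous UMIs, folds are ratios of mean CPM over cells, and a gene was compared if its UMIs summed to 100 or more in the 47 cells. A gene was called higher or lower at a fold of 1.5, and separated at 80% or 20% of pairs, ties counting for both sides in equal parts. Intervals are exact at 95%, conditional on the total for ratios, and cover counting error only. Genes were named by size: the 20 largest folds above and the 12 largest below among genes past both limits, and of each of 25 lists up to 4 members with the most UMIs and 3 with the largest folds, to which further members beyond the limit were added after their values were seen. The members and lists were chosen with earlier results of these data known. List genes without a row are not analysed here. A gene that the rule by size also names is not reported here. Alternatives were TMM factors (edgeR 4.0.16, R 4.3.3), other totals, pooled sums, thinning, other minimums, other groups and leaving out cells. Scripts (Python 3.11.15, numpy 2.4.6, pandas 2.3.3, scipy 1.17.1) were tested on simulated data. Promoters are from RefSeq (GRCh38.p14), another build than the table's, and were matched by symbol.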

Additional observations from a re-analysis of the deposited data

How the results depend on the processing

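None of the 32 genes named by size changed direction under any alternative that gave it a value. Leaving out each cell in turn was not applied to these genes. They were chosen for large folds in mostly the same cells, so their stability was in large part set by that choice. The number of genes compared sets the number called. With at least 50 UMIs 5929 genes were compared, and 1313 were higher (22.1%), 635 lower (10.7%) and 57 mitotic genes higher. With at least 300 UMIs 1459 were compared, and 98 were higher (6.72%), 38 lower (2.60%) and 9 mitotic genes higher. With no filter beyond 1 UMI in each group 11843 were compared, and 3424 were higher (28.9%), 2367 lower (20.0%) and 73 mitotic genes higher. The main values were 555 (15.1%), 277 (7.54%) and 33, with 3673 genes compared. The numbers of mitotic genes compared at these minimums are not reported here, so these mitotic counts are not to be read as shares. Cells numbered up to 48 gave 967 higher genes. Cells numbered above 48 gave 597 lower genes, 17 mitotic genes higher and a log2 ratio of endogenous to spike-in UMIs of -0.11 where it was 0.36, and the cause was not tested. Cells of 55000 to 75000 UMIs, chosen after seeing the data, gave 531 lower genes. Leaving out 1 cell at a time gave 517 to 635 higher genes, 268 to 317 lower genes and 25 to 34 mitotic genes higher. It gave log2 ratios of 0.32 to 0.43 for endogenous to spike-in UMIs, of -0.18 to -0.12 for ribosomal proteins, -0.10 to 0.25 for mitochondrial mRNAs (the lowest without cell 52), -0.24 to -0.10 for licensing genes, -0.06 to 0.04 for fork genes and -0.30 to 0.11 for replication-dependent histones. Of the 32 genes named by size 28 stayed past the limit under every alternative that was applied to them and gave a value. FNTA, MRPS15, C9orf16 and EEF1D did not in at least 1 subset of cells. No paired analysis was possible because cells carry no numbers shared between groups. Depth limits the folds of rare genes: a count of 0 allows up to 3 UMIs, and all cells come from 1 run of 1 line.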
